A study of Mus musculus with 24 samples.

Results

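Wild-type and Nlrp14 knockout oocytes of the mouse were compared at the germinal vesicle (GV) stage, in which the fully grown oocyte is arrested in meiotic prophase with its nucleus intact. All libraries labelled GV were taken, which gave 6 of the 24 libraries of the series: 3 of genotype WT and 3 of genotype Nlrp14 knockout (titled HO), each made from the total RNA of 5 oocytes with the SMART-Seq HT kit. The other 18 libraries were eggs at metaphase II (MII), pronuclear zygotes (PN5) and 2-cell embryos, with 3 libraries per genotype and stage. The deleted part of Nlrp14, the strain, the age of the mice and whether the knockout is 1 line or several are not given in the sources used here. The replicates are labelled as biological, but no label says that they came from separate animals, so the p-values cover only the spread among these pools of oocytes.

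A fully grown oocyte no longer transcribes most of its genes and lives on messenger RNA stored during growth, which later serves meiotic maturation, fertilisation and the first cleavage. NLRP14 belongs to the NLR family, of which several members are made almost only in oocytes and early embryos. Some of its relatives, such as NLRP5, sit beneath the egg membrane in the subcortical maternal complex, on which the embryo depends for its early divisions. Loss of such a maternal-effect protein can leave the oocyte able to grow and mature while the embryo stops dividing.

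Levels are given in FPKM (fragments per kilobase of a gene's transcript, relative to all fragments of that library), and differences as knockout minus wild type on the log2(FPKM + 1) scale, which understates the change of genes at low levels. FPKM is a share of each library, so a difference in total RNA per oocyte would not show. The steps of the low values gave 10.4, 11.5 and 12.2 M fragments for the wild-type libraries and 9.47, 11.5 and 9.23 M for the knockout libraries. Between 11546 and 11662 genes reached 1 FPKM in the wild-type libraries, against 11542, 11264 and 10379 in knockout replicates 1, 2 and 3 (exact two-sided permutation p = 0.1, the smallest that 3 against 3 allows). All 9 oocyte markers examined were present in every library; Figla, a transcription factor of follicle formation, was at 54.0 to 98.3 FPKM and the secreted factor Gdf9 at 1283 to 2585 FPKM. Of 24 markers of granulosa and cumulus cells, the somatic cells around the oocyte, 4 were high enough to test. Among these, Cyp19a1 was at 4.80, 4.96 and 9.86 FPKM in wild type against 9.01, 9.98 and 11.8 FPKM in knockout. Inha was at 2.94, 6.29 and 2.51 FPKM against 5.23, 5.68 and 1.84 FPKM. The sum of all 24 markers was 13.3 to 18.3 FPKM in wild type against 17.1 to 20.8 in knockout. Of the untested markers 3 were at 0 in all 6 libraries, and Foxl2 and Amh never passed 0.195 and 0.104 FPKM. Markers of sperm summed to 21.7 to 25.9 FPKM in wild type against 20.9 to 31.5 in knockout. Tnp1 was at 0 throughout, but Prm2 was at 4.81 to 9.96 FPKM and Ldhc at 2.48 to 15.6 FPKM.

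Knockout replicate 3 stood apart from the other 5 libraries. Its level fell with the length of a gene's exons, with a slope of -0.125 log2 units per doubling of length, whereas the other 5 libraries had slopes of 0.00162 to 0.0376. Across the 11635 genes tested, its correlation with each other library was 0.933 to 0.948, against 0.965 to 0.987 among the rest. In it 1291 genes were more than 1 unit of log2(FPKM + 1) below the mean of the other 5 libraries (41 to 148 in each of the others). Another 226 were more than 1 unit above (40 to 85 in the others). The genes low in it had a median exon length of 3447 bases and those high in it 611 bases, beside 2675 bases for all tested genes. Results are therefore given with and without this library.

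**Figure D1:**
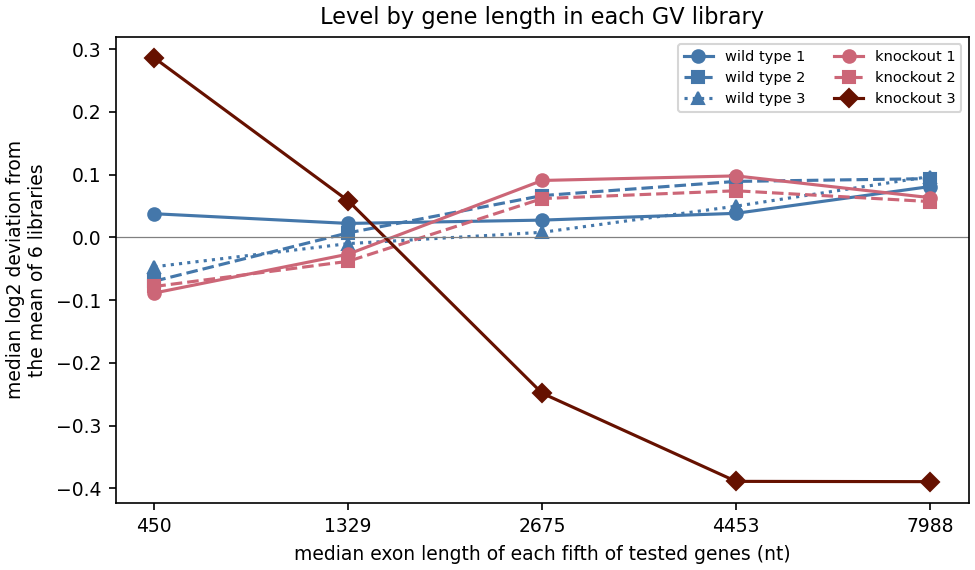
Median deviation of log2(FPKM + 1) from the mean of the 6 GV libraries, by quintile of exon length, for each library (lines; 2323 to 2325 genes per quintile). Knockout replicate 3 runs from 0.29 in the shortest quintile to -0.39 in the longest, while the other 5 libraries stay between -0.09 and 0.10.

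Nlrp14 itself was among the most abundant messages of the wild-type oocyte, the 12th highest protein-coding gene. It lies on chromosome 7 (GRCm38, 107166990 to 107198102, plus strand). Its level was 1876, 2014 and 1922 FPKM in the wild-type libraries against 22.2, 23.7 and 39.2 FPKM in the knockout libraries. Every knockout library was thus far below every wild-type library, and the knockout kept 1.46% of the wild-type mean. The difference was -6.09 log2 units (95% interval -6.63 to -5.55, limma adjusted p = 0.00027) and -6.34 without knockout replicate 3. The labels and the targeted gene matched in all 6 libraries.

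The nearest tested protein-coding genes, 3 on each side of Nlrp14, gave no call. Rbmxl2, which starts 11343 bases after the end of Nlrp14, was at 1.57, 1.94 and 1.17 FPKM in wild type against 1.15, 0.711 and 0.368 FPKM in knockout. Olfml1, the next, was at 3.26, 3.14 and 4.0 FPKM against 2.22, 1.62 and 1.55 FPKM. In both genes the knockout libraries all lay below the wild-type ones, with differences of -0.57 (limma adjusted p = 0.36) and -0.68 (adjusted p = 0.20). The groups overlapped for Ppfibp2 beyond them and for Taf10, Tpp1 and Mrpl17 on the other side, with differences of -0.23 to 0.23.

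Of 11635 genes tested, 5 passed at adjusted p under 0.05 with limma (percent called 0.043), 4 lower (0.0344%) and 1 higher (0.00859%) in the knockout. In all, 1378 genes, these 5 among them, had an unadjusted p under 0.05 (11.8%). The number rested on single libraries. It was 1 (Nlrp14) when any of wild-type replicates 1, 2 or 3 was left out, 3 when knockout replicate 1 or 2 was, and 1026 when knockout replicate 3 was. Some of these losses come from the low-value filter, since Zglp1 was not tested in the fits that left out a wild-type library, nor Gm49373 in those that left out a knockout library.

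Beside Nlrp14 the lower genes were Zglp1, which encodes a zinc finger protein of the germline, the olfactory receptor pseudogene Olfr650-ps1 and the predicted gene Gm30564. Zglp1 was at 5.05, 5.77 and 4.42 FPKM in wild type against 0.150, 0.185 and 0.230 FPKM in knockout. The knockout values rest on single fragments. All were under 1 FPKM, so Zglp1 passed the filter on low values only through wild type. That its groups did not overlap was thus fixed by the filter. The difference was -2.35 (95% interval -2.71 to -2.0, adjusted p = 0.0046), and -2.38 without knockout replicate 3 (adjusted p = 0.0043).

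Olfr650-ps1, on the same chromosome as Nlrp14 (7: 104203437 to 104207865), was at 8.68, 7.96 and 9.34 FPKM in wild type against 1.82, 1.39 and 1.49 FPKM in knockout, a difference of -1.91 (adjusted p = 0.016). Gm30564, on chromosome 15 (93956722 to 93964708), was at 7.57, 5.67 and 7.76 FPKM against 0.921, 1.23 and 1.42 FPKM, a difference of -1.87 (adjusted p = 0.041). For both the groups were well apart. Gm30564 did not pass after median-of-ratios rescaling of the libraries (adjusted p = 0.059). Without knockout replicate 3 both passed, at adjusted p = 0.0055 and 0.0091.

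Both were also lower in later libraries, none of which entered the GV fit. In MII eggs Olfr650-ps1 was at 12.7, 21.8 and 19.2 FPKM in wild type against 2.54, 1.96 and 2.97 FPKM in knockout (-2.41, adjusted p = 0.0083), in a fit that called 2.28% of genes, 0.32% higher and 1.96% lower. In PN5 zygotes it was at 11.4, 12.6 and 7.93 FPKM against 4.84, 3.07 and 2.69 FPKM (-1.37, adjusted p = 0.039, or 0.058 after median-of-ratios rescaling), where 6.1% of genes were called, 5.53% as lower. In 2-cell embryos its difference was -0.17 (adjusted p = 0.78), with overlapping groups.

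Gm30564 was lower at each stage. It was at 7.92, 9.05 and 8.20 FPKM against 2.24, 2.29 and 2.15 FPKM in MII eggs (-1.54, adjusted p = 0.0091). It was at 7.94, 11.7 and 10.4 FPKM against 2.98, 4.10 and 3.03 FPKM in PN5 zygotes (-1.33, adjusted p = 0.036). In 2-cell embryos it was at 6.58, 4.50 and 3.93 FPKM against 2.19, 1.68 and 1.83 FPKM (-1.03, adjusted p = 0.0076), in a fit that called 54.3% of genes, 40.3% as lower. The groups did not overlap at any of the 4 stages. Being called at GV set the direction there, but not at the other stages.

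**Figure D2:**
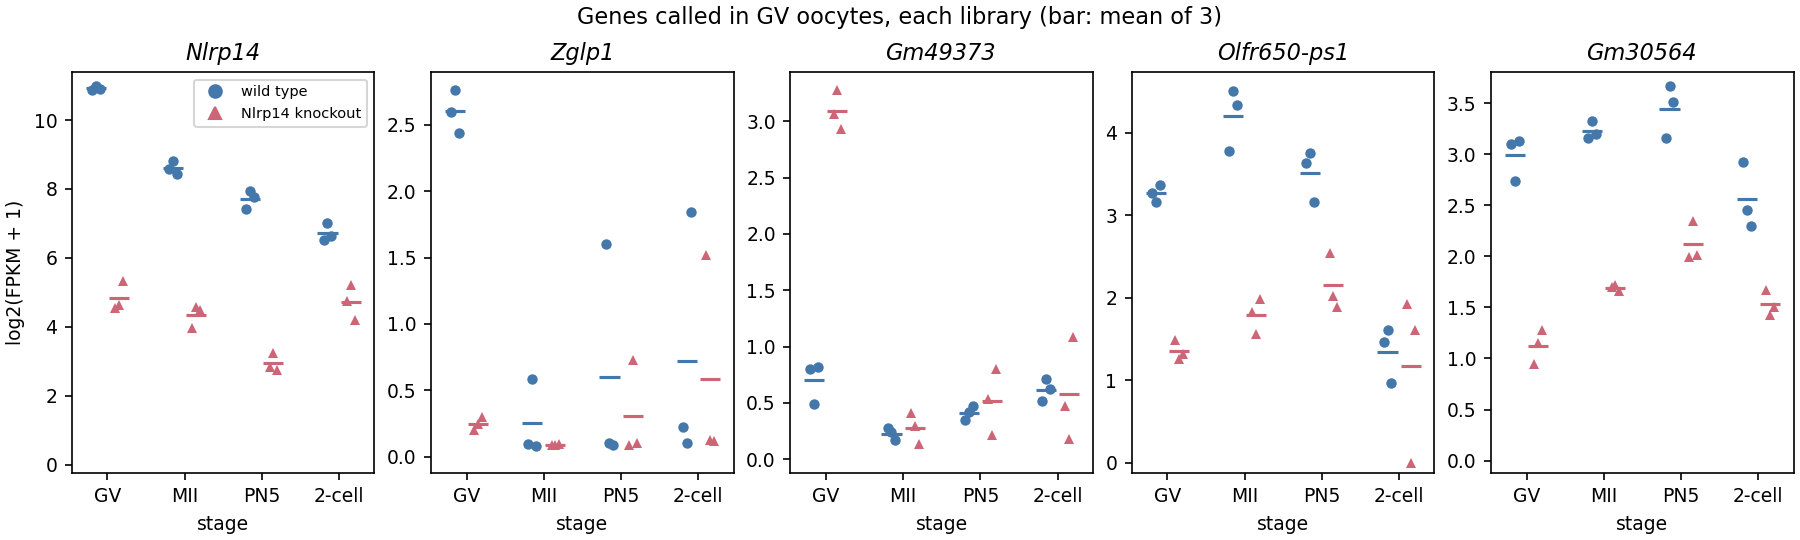
Level of the 5 genes called at GV, as log2(FPKM + 1), in each wild-type (circles) and knockout (triangles) library of the 4 stages, with a bar at the mean of 3 on that scale. At GV the 3 knockout libraries lie below the 3 wild-type libraries for Nlrp14, Zglp1, Olfr650-ps1 and Gm30564 and above them for Gm49373, and the last 2 panels show the lower knockout values of Olfr650-ps1 at MII and PN5 and of Gm30564 at all 4 stages.

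The 1 gene that was higher, the predicted gene Gm49373, overlaps Zglp1 on the same strand of chromosome 9 (Gm49373 21062400 to 21073096, Zglp1 21062393 to 21067093, minus strand). It was at 0.743, 0.401 and 0.760 FPKM in wild type against 7.38, 8.70 and 6.63 FPKM in knockout, a difference of 2.39 (95% interval 1.97 to 2.81, adjusted p = 0.0094). Its wild-type values were all under 1 FPKM, so it passed the filter on low values only through the knockout libraries. The filter thus fixed that its groups did not overlap. Of the 1088 exon bases of Zglp1, 1003 (92.2%) are exon bases of Gm49373 too, and they make up 51.6% of its 1945. A further 516 bases of Gm49373 are shared with Fdx1l, a ferredoxin gene, and 426 are its own.

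Because the annotations share these bases, fragments from the shared exons can be given to either gene, and the opposite differences of the pair are not independent. In fragments, Zglp1 went from 57.1, 72.5 and 58.6 in wild type to 1.54, 2.31 and 2.31 in knockout, and Gm49373 from 15, 9.0 and 18 to 136, 194 and 119. The summed coverage of the pair (FPKM times exon length in kb) was 6.94, 7.06 and 6.29 in wild type (6.77 ± 0.414, SD, n = 3) and 14.5, 17.1 and 13.1 in knockout (14.9 ± 2.02, SD, n = 3). The sum was thus higher in every knockout library, with an exact two-sided permutation p of 0.1, the smallest possible. It counts all exon bases of Zglp1 and so has the same limit. Fdx1l was at 5.20, 7.87 and 2.81 FPKM against 7.28, 3.79 and 2.40 FPKM, with overlapping groups (adjusted p = 0.88). Whether transcripts from the start of Gm49373 run through Zglp1 was not tested.

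The stretch around the annotated start of Zglp1 is shown because it is where the models part: the 250 bases before the start, in capitals, lie in an exon of Gm49373 and not of Zglp1, and the 50 bases after it, in lower case, lie in exons of both. It is RefSeq's sequence of GRCm38.p6, chr9:21067044-21067343, minus strand, 5′ to 3′.
Zglp1 start: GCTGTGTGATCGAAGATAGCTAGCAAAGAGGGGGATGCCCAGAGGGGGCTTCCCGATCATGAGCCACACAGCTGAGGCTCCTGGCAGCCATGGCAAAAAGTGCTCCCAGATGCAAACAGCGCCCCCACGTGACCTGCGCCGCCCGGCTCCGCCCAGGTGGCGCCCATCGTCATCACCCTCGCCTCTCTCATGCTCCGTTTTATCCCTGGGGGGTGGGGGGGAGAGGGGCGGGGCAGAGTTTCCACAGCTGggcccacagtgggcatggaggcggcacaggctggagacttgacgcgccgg

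**Figure D3:**
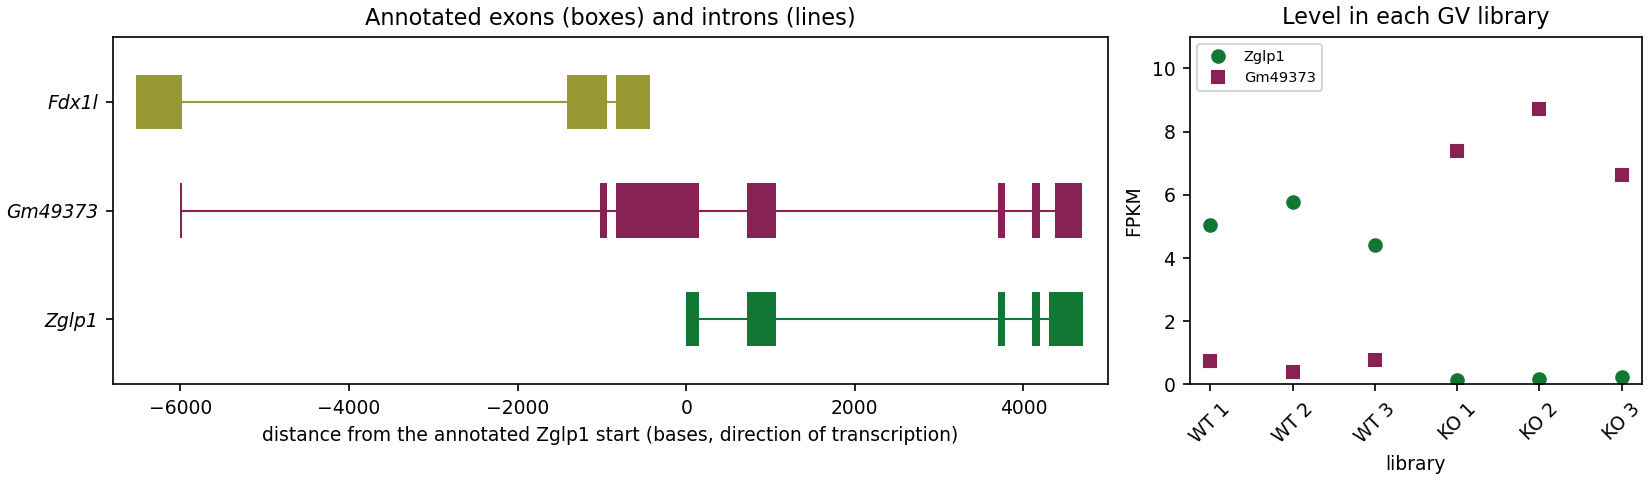
Exon bases of Zglp1, Gm49373 and Fdx1l drawn by distance from the start of Zglp1, with the FPKM of Zglp1 and Gm49373 in each GV library (points). Zglp1 is above 4.4 FPKM in the 3 wild-type libraries and below 0.24 in the 3 knockout libraries, and Gm49373 shows the opposite order.

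At later stages the pair was near the lower limit of the data. Zglp1 was at most 0.502 FPKM in MII eggs and reached 2.03 FPKM in 1 PN5 library and 2.59 FPKM in 1 library of 2-cell embryos. Gm49373 never passed 1.13 FPKM after the GV stage. Neither was tested there.

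A small number of genes held much of the wild-type oocyte's FPKM: the 100 highest took 33.0 to 33.5%, against 33.5% and 33.4% in knockout replicates 1 and 2 and 38.2% in replicate 3. Protein-coding genes held 71.4% of wild-type FPKM and processed pseudogenes 17.4%. The highest protein-coding gene was Dppa3, whose product protects the maternal genome from loss of methylation after fertilisation. It was at 6631, 6629 and 6356 FPKM in wild type against 7174, 6894 and 12909.5 FPKM in knockout, so the higher knockout mean came mostly from replicate 3 (0.40, 95% interval -0.20 to 1.00, and 0.11 without that library).

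Elobl, an oocyte copy of an elongin subunit, was at 5801, 5450.0 and 5671 FPKM against 5573, 5689 and 7066 FPKM. Bcl2l10, an apoptosis inhibitor, was at 4330.5, 4456 and 3790.3 FPKM against 3603, 3496 and 3389 FPKM (-0.26, 95% interval -0.59 to 0.07). Its knockout libraries all lay below the wild-type ones, without a call.

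Ubiquitin B (Ubb) was at 2988, 3184 and 3153 FPKM against 3078, 3146 and 3511 FPKM, an interval of -0.26 to 0.38. Ldhb, a lactate dehydrogenase subunit, was at 3174, 2477 and 3069 FPKM against 3098, 3005 and 4198 FPKM. The groups overlapped in both. Gm813, Fbxw24 and E330017A01Rik had their highest value in knockout replicate 3 (8541, 5717 and 5950.1 FPKM), with replicates 1 and 2 between 3056 and 4179 FPKM. Of the 12 highest genes, Nlrp14 was the only one called.

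How large a difference the data allow was read from limma's 95% intervals. A gene is called bounded here where the whole interval lay within 1 unit of log2(FPKM + 1) in either direction. At high levels that is a 2-fold limit, but at low levels it is no 2-fold limit on the FPKM itself, since complete loss of a gene at 1 FPKM is a difference of 1 unit. By this measure 8808 of the 11635 genes (75.7%) were bounded, and 7214 of the 11635 were at 1 to 10 FPKM in wild type. With a pseudocount of 0.1 in place of 1 the share was 52.9%, and without knockout replicate 3 it was 10129 of 11437 genes (88.6%). By wild-type level, 75.4% of the 7214 genes at 1 to 10 FPKM were bounded, 74.9% of 3421 at 10 to 100 FPKM, 86.6% of 636 at 100 to 1000 FPKM and 39 of the 43 genes at 1000 FPKM or more (90.7%). Without knockout replicate 3 these shares were 85.7, 92.3, 95.4 and 93.0%.

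The 19 lists of oocyte and housekeeping genes held 520 symbols, of which 437 were tested. Of these 1 was called (Zglp1), 27 had an unadjusted p under 0.05 (15 higher and 12 lower, 6.18% beside 11.8% of all genes), and 346 (79.2%) were bounded, beside 75.7% of all genes. The median difference over all genes was -0.08, and 39.8% of them were positive. Over all genes 8.14% had every knockout library above every wild-type one and 14.8% had every one below (23% in either direction). No list other than that of transcription factors had a called member, and the counts below are descriptions against these backgrounds.

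Among the factors the oocyte secretes to its follicle, 0 of 9 tested were called and 7 were bounded. Gdf9, which drives growth of the surrounding granulosa cells, was at 1914, 1943 and 1773 FPKM in wild type against 2530.2, 2585 and 1283 FPKM in knockout (0.12, 95% interval -0.55 to 0.78). Its partner Bmp15 was at 734, 751 and 769.5 FPKM against 960.4, 889 and 359.6 FPKM (-0.16, -1.02 to 0.70). In both genes knockout replicates 1 and 2 were above all wild-type libraries and replicate 3 below them. Both passed the test without that library, at 0.45 (adjusted p = 0.018) and 0.30 (adjusted p = 0.038).

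The zona pellucida, the glycoprotein coat that sperm must bind and cross, showed a similar order, with knockout replicates 1 and 2 the highest for Zp1, Zp2 and Zp3. Of 8 tested genes of the coat and of sperm-egg interaction 0 were called, 6 differences were positive and 6 genes were bounded. Zp3 was at 2061, 2309.8 and 1970.1 FPKM in wild type against 3029.8, 2735 and 2203 FPKM in knockout (0.32, -0.08 to 0.72), Zp2 differed by 0.26 and Zp1 by 0.33. Cd9, the egg membrane protein needed for fusion with sperm, had the smallest p of the list (0.54, adjusted p = 0.30).

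Without knockout replicate 3, Zp1, Zp2, Zp3, the cortical granule protease Astl and Izumo1r, the egg receptor for the sperm protein IZUMO1, were higher in the knockout, by 0.77, 0.38, 0.45, 1.13 and 0.27. That is 5 of 8, in a fit that called 8.97% of 11437 genes, 3.54% of them higher and 5.43% lower. It was 4 of 8 once the trend with GC content was removed from each library. The GC trend moved with genotype among these libraries: its slope per 10 percentage points was 0.151 and 0.118 in knockout replicates 1 and 2, -0.0766 to 0.0338 in wild type and -0.194 in knockout replicate 3.

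In the subcortical maternal complex 0 of 8 genes were called, but no more than 2 were bounded, so the data limit this complex less than most groups. Padi6, needed for the lattices of the egg cytoplasm, was at 1302, 1649.8 and 1168 FPKM in wild type against 2254, 2039 and 627 FPKM in knockout (0.07, -1.06 to 1.19). Nlrp5 was at 168, 212 and 181 FPKM against 335, 299.7 and 133 FPKM (0.35, -0.47 to 1.17). Ooep ran the other way, at 1694, 1502 and 1469 FPKM against 1636, 1742 and 3103 FPKM, with replicate 3 the highest. Khdc3, with all knockout libraries above wild type (93.1, 89.6 and 94.0 FPKM against 152, 133 and 100.2 FPKM), differed by 0.45 (adjusted p = 0.39).

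The median of this list was 0.03, and -0.06 on the TPM scale. Without knockout replicate 3, Khdc3, Nlrp5 and Padi6 passed as higher (0.62, 0.76 and 0.66), 2 of them also with the GC trend removed. In that fit 0 of the 8 passed as lower.

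The other NLRP genes of the oocyte, apart from Nlrp14, were 11 tested with 0 calls and 7 bounded. Nlrp4g was the one whose libraries parted most: 65.0, 65.0 and 67.7 FPKM in wild type against 34.2, 39.3 and 21.4 FPKM in knockout, a difference of -1.08 (adjusted p = 0.13), and -0.83 without knockout replicate 3 (adjusted p = 0.013). It has close relatives in the genome, between which fragments can be split. The highest of the group, Nlrp9c, was at 185, 184 and 193 FPKM against 189.9, 197 and 287 FPKM, with replicate 3 the highest. Nlrp4a was at 175, 166 and 187 FPKM against 147, 153 and 93.3 FPKM, all below wild type (-0.45, adjusted p = 0.47), and Nlrp9a at 151, 155 and 173 FPKM against 156, 154 and 137 FPKM, with overlapping groups. Replicate 3 was thus the lowest library in some of these genes and the highest in Nlrp9c.

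Of 17 transcription and pluripotency factors, Zglp1 was called and 9 were bounded. Nobox, a homeobox factor of follicle growth, was at 96.9, 116 and 84.1 FPKM in wild type against 189, 165 and 43.6 FPKM in knockout (0.18, -1.07 to 1.42), again with replicates 1 and 2 above and replicate 3 below all wild-type libraries. Obox2, one of several near-identical homeobox genes, was at 3491, 3099 and 3385 FPKM against 2381, 2563 and 3857 FPKM. Lin28a, an RNA-binding regulator of the let-7 miRNAs, was low, at 1.33, 1.64 and 1.30 FPKM against 0.212, 0.117 and 0.700 FPKM (-0.87, adjusted p = 0.15). Without replicate 3, Lhx8 and Nobox passed as higher and Lin28a, Obox2 and Zglp1 as lower. All knockout values of Lin28a and Zglp1 were under 1 FPKM. Both genes passed the filter on low values only through wild type, which fixed their direction.

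Stored messenger RNA is handled by proteins that mask, poly(A)-tail or remove it, and 23 of their genes gave 0 calls, with 14 bounded and 7 positive differences. Btg4, the adaptor that brings the CCR4-NOT deadenylase to maternal messages, was at 1373, 1337 and 1413 FPKM in wild type against 1245, 1231 and 1309 FPKM in knockout. All knockout values were lower, by no more than the interval of -0.43 to 0.18 allows. Cnot7, a catalytic subunit of that deadenylase, was at 38.3, 36.5 and 36.1 FPKM against 26.9, 26.8 and 28.5 FPKM (-0.42, adjusted p = 0.29; -0.45 and adjusted p = 0.027 without replicate 3). Zar1, which stores maternal messages, was at 159, 157 and 138 FPKM against 239.5, 215 and 90.4 FPKM. Without replicate 3, Patl2, Ythdf2 and Zar1 passed as higher and Cnot7 and Lsm14b as lower. Patl2 and Cnot7 no longer passed when the GC trend was removed as well.

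Genes of meiotic arrest and maturation gave 0 calls among 33, and 24 were bounded. Wee2, the kinase that holds the oocyte in arrest, was at 156, 159 and 159 FPKM in wild type against 155, 165 and 84.0 FPKM in knockout. Mos, which holds the egg at metaphase, was at 661, 722 and 677 FPKM against 756, 666 and 487 FPKM, and cyclin B1 (Ccnb1) at 139, 143 and 142 FPKM against 132, 122 and 96.9 FPKM. For each, replicate 3 was the lowest. The smallest p belonged to Ppp2r2d, a regulatory subunit of protein phosphatase 2A, at 10.7, 12.4 and 9.82 FPKM against 4.90, 5.32 and 3.81 FPKM (-1.08, 95% interval -1.51 to -0.65, adjusted p = 0.096). Its groups were apart, and it passed without replicate 3 (-0.96, adjusted p = 0.018), as did Cdc20, Fzr1 and Mapk3 in the higher direction. Cdc20 and Mapk3 no longer passed when the GC trend was removed as well, while Bub1 then passed as higher.

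The genes of spindle migration and the cortex were among the most tightly limited, with 14 of 16 bounded and 0 called. Cdc42, a small GTPase of cell polarity, was at 157, 165 and 155 FPKM against 182, 179 and 161 FPKM, and Rab11a, which marks the vesicles of actin-driven transport, at 63.6, 65.3 and 58.8 FPKM against 59.6, 65.9 and 68.8 FPKM. Their intervals were -0.18 to 0.45 and -0.28 to 0.38. Ezr, a linker of actin to the membrane, had the smallest p (-0.62, adjusted p = 0.39).

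For DNA methylation and imprint maintenance 0 of 12 genes were called and 7 were bounded. The maintenance methyltransferase Dnmt1 was at 81.6, 86.8 and 96.8 FPKM in wild type against 101, 109.6 and 37.9 FPKM in knockout (-0.23, -1.15 to 0.69). Uhrf1, which brings it to hemimethylated DNA, was at 25.4, 27.8 and 23.9 FPKM against 34.2, 34.6 and 15.4 FPKM (0.04, -0.70 to 0.78; 0.41 and adjusted p = 0.047 without replicate 3). Both again had replicate 3 below and the other knockout libraries above wild type. Kdm1b, a histone demethylase that sets up maternal imprints, and Gadd45b joined Uhrf1 among the genes higher without replicate 3. Of these, Kdm1b alone still passed with the GC trend removed as well.

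Of 20 genes of oocyte chromatin and maternal effect 0 were called, with or without replicate 3, and 17 were bounded. The oocyte linker histone H1foo was at 1853, 1863 and 1844 FPKM in wild type against 1940.3, 2016 and 1638 FPKM in knockout. Its difference was 0.00 with an interval of -0.34 to 0.34, which makes it one of the best limited abundant messages. Npm2, a chaperone of egg histones, had the smallest p (0.46, adjusted p = 0.40). At the unadjusted level of 0.05 it was the only one of the 20.

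Calcium handling, which sets the egg's response to sperm, gave 0 calls among 26 genes and 24 bounded. Canx, the chaperone calnexin, was at 38.4, 44.8 and 48.6 FPKM against 42.7, 43.9 and 41.1 FPKM, and Itpr1, the calcium release channel of the egg's stores, at 1.70, 1.97 and 2.14 FPKM against 1.87, 1.64 and 1.65 FPKM. The groups overlapped in both. Vdac2, a channel of the outer mitochondrial membrane, was at 51.7, 51.0 and 59.8 FPKM against 40.5, 35.3 and 44.7 FPKM, with the groups apart (-0.42, adjusted p = 0.36; -0.50 and adjusted p = 0.043 without replicate 3). Its call without replicate 3 was lost once the GC trend was removed too. Slc8b1, the sodium-calcium exchanger of mitochondria, was listed at 0 in 5 of the GV libraries and at 0.0242 FPKM in wild-type replicate 3, so its messenger RNA could not be compared. The germline small RNA pathway gave 0 calls among 15 genes, with 12 bounded, and Mael, which works in transposon silencing, was at 56.4, 57.9 and 46.2 FPKM against 47.4, 59.8 and 50.0 FPKM.

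The 13 mitochondrially encoded messages were all bounded and none was called, but they split the knockout libraries. The message mt-Cytb, for a subunit of respiratory complex III, was at 1609.5, 1520.2 and 1433 FPKM in wild type against 1157, 1232 and 2439 FPKM in knockout. That of mt-Co1, of complex IV, was at 811, 724 and 822 FPKM against 526, 587 and 1199 FPKM. Replicates 1 and 2 were below and replicate 3 above every wild-type library in both. Mitochondrial messages together took 2.24 to 2.45% of FPKM in wild type against 1.72, 1.78 and 2.91% in the knockout libraries. Without replicate 3, 7 of the 13 passed as lower, and 2 with the GC trend removed. The direction over all 6 libraries depended on scaling, with 3 of 13 differences positive here, 0 on the TPM scale or with the length trend removed, and 9 after median-of-ratios rescaling or removal of the GC trend.

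Nuclear genes of oxidative phosphorylation leaned the other way, with 62 of 74 differences positive (39.8% of all genes), a median of 0.23, 61 bounded and 0 calls. In 16 of the 74 every knockout library was above wild type, and in 0 every one was below. Their summed level was 4550.3 to 4769 FPKM in wild type, 4754 and 4946 FPKM in knockout replicates 1 and 2 and 7156 FPKM in replicate 3. Without replicate 3, 49 were positive and the median was 0.10. Ndufb8, of complex I, was at 15.7, 15.4 and 13.9 FPKM against 20.6, 21.7 and 26.8 FPKM, the smallest p of the list (0.58, adjusted p = 0.23). It passed without replicate 3 (0.47, adjusted p = 0.036), as did Atp5d, Ndufb5 and Uqcrc1, all higher. Atp5d alone of these lost its call when the GC trend was removed as well, while Uqcr11 then passed as lower.

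The ribosomal proteins of the cytosol were alike in form: 71 of 76 positive, a median of 0.25, 70 bounded and 0 calls. In 21 every knockout library was above wild type and in 1, Rpl17, every one was below. Their sum was 2328 to 2448 FPKM in wild type, 2393 and 2539 FPKM in replicates 1 and 2 and 3613 FPKM in replicate 3, and without it 52 of 75 were positive with a median of 0.08. Rpl4 was at 156, 162 and 157 FPKM against 154, 169 and 139 FPKM. The genes of both groups were short, with median exon lengths of 1737 and 1736.5 bases beside 2675 for all tested genes, as were those high in replicate 3, and many ribosomal protein genes have processed copies between which fragments can be split. Over 4 other scalings of the 6 libraries the positive differences numbered 54 to 68 for oxidative phosphorylation and 68 to 73 for ribosomal proteins (of 76, or 78 on the TPM scale). With the length trend removed they numbered 63 of 74 and 69 of 76, with medians of 0.21 and 0.22. Why these groups leaned higher was not tested.

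The 26S proteasome, which degrades ubiquitin-tagged proteins, had 28 of 32 genes bounded and 0 calls. Psma6 was at 271, 256 and 260.3 FPKM in wild type against 213, 222 and 395 FPKM in knockout, a difference of 0.01 that became -0.27 (adjusted p = 0.047) without replicate 3. That call was lost with the GC trend removed as well. Of 18 antioxidant genes 0 were called and 15 were bounded. Prdx1, a peroxiredoxin that removes hydrogen peroxide, was at 428, 419.5 and 412 FPKM against 639, 627 and 1155 FPKM, with every knockout library above every wild-type one (0.88, 95% interval 0.29 to 1.47, adjusted p = 0.24). It passed without replicate 3, at 0.59 (adjusted p = 0.0094). Sod1 and Txn1, the cytosolic superoxide dismutase and thioredoxin, overlapped between the groups.

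The unfolded protein response gave 0 calls among 19 genes, with 11 bounded, and none passed without replicate 3. When the GC trend was removed as well, Hsp90b1 passed as higher. In the list of DNA damage, p53 and apoptosis genes 0 of 14 were called and 9 were bounded. Chek1, the checkpoint kinase, was at 112, 119 and 90.8 FPKM in wild type against 69.0, 69.7 and 63.6 FPKM in knockout (-0.66, -1.03 to -0.29, adjusted p = 0.17). Bax, which opens the outer mitochondrial membrane in apoptosis, was at 10.1, 10.5 and 9.29 FPKM against 15.3, 14.4 and 11.4 FPKM (0.41, 0.01 to 0.81, adjusted p = 0.41). In both genes the groups were apart, and both passed without replicate 3, Chek1 at -0.62 (adjusted p = 0.037) and Bax at 0.53 (adjusted p = 0.031). Neither passed when the GC trend was removed as well.

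**Figure D4:**
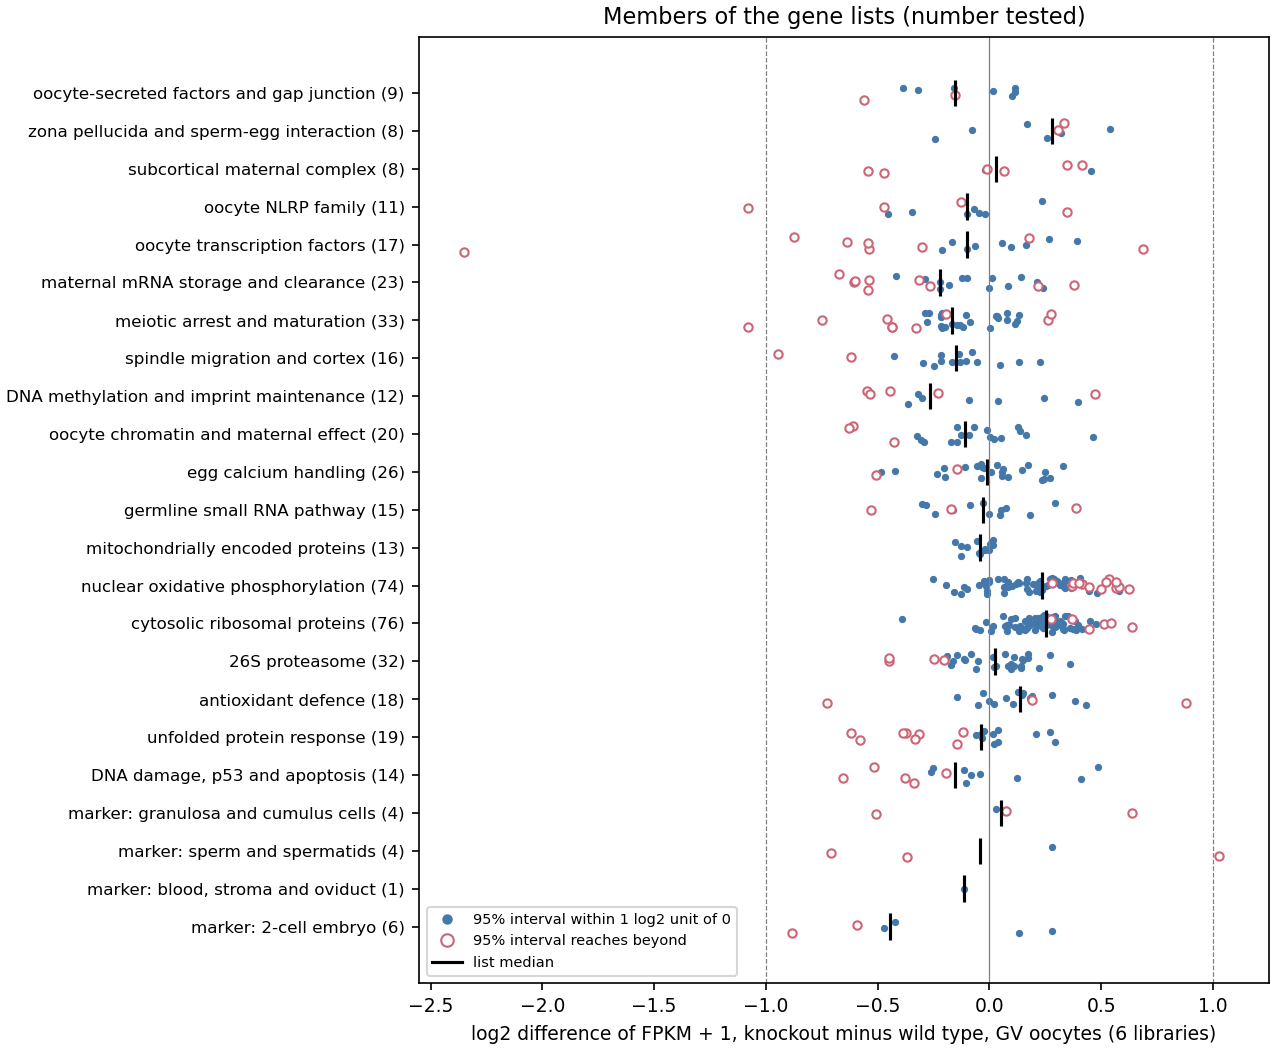
Knockout minus wild type on the log2(FPKM + 1) scale over the 6 GV libraries for each tested gene (points) of the 19 lists and of 4 lists of cell type markers, with a bar at the median of each list; filled points have a 95% interval within 1 log2 unit of 0 (dashed lines mark -1 and 1). The medians of the 19 lists lie between -0.27 and 0.28, the far point at -2.35 is Zglp1, and the open points crowd the subcortical maternal complex, where 2 of 8 genes are filled.

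The genes that set knockout replicate 3 apart were read from the protein-coding genes of at least 20 FPKM. Rfpl4, a ubiquitin ligase gene of the germline, was at 268, 245 and 241 FPKM in wild type, 238 and 249 FPKM in knockout replicates 1 and 2 and 917 FPKM in replicate 3. Klf17, a transcription factor of the oocyte, was at 70.8, 70.4 and 64.9 FPKM, then 57.4, 55.3 and 9.30 FPKM. Nelfa, a subunit of the negative elongation factor, was at 22.9, 26.6 and 21.6 FPKM, then 29.7, 24.5 and 3.95 FPKM. In each the first 2 knockout libraries were near wild type.

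Not all of the extremes were of this replicate alone. Bola1, a mitochondrial iron-sulfur protein, was at 39.5, 34.7 and 40.0 FPKM in wild type against 37.0, 1.99 and 3.67 FPKM in knockout, low in replicates 2 and 3. Banf1, which binds DNA at the nuclear envelope, was at 39.3, 36.4 and 34.8 FPKM against 37.7, 102 and 142 FPKM, high in the same pair. Dynlt1b, a dynein light chain, was at 155, 153 and 147 FPKM against 317, 351 and 655 FPKM, high in all 3 (1.46, adjusted p = 0.12; 1.14 and adjusted p = 0.0043 without replicate 3). The mouse has near-identical Dynlt1 copies, and the sum over 4 of them was 194.8, 191.7 and 183.9 FPKM in wild type against 365.9, 408.7 and 752.04 FPKM in knockout.

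With 3 wild-type and 2 knockout libraries left, 1026 of 11437 genes were called (8.97%), 405 higher and 621 lower. Genes at 1 FPKM or more in wild type alone could pass the filter of this fit. Genes at that level in the 2 knockout libraries alone could not, so the filter favoured lower calls. Their median size was 0.68 units of log2(FPKM + 1), and 39 higher and 139 lower genes reached 1 unit. At low levels a difference under 1 unit can be more than 2-fold in FPKM, so these counts are no counts of 2-fold changes. Replicate 3 had no part in choosing them, but over all 11437 genes it lay below the wild-type range in 54.1%, within it in 15.1% and above it in 30.8%. It lay below that range for 438 of the 621 lower genes (70.5%), within it for 82 and above it for 101. For the 405 higher genes it lay above in 189 (46.7%), within in 35 and below in 181. The count was 790 with the GC trend removed, 1049 with the length trend removed and 1034 after median-of-ratios rescaling.

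The genes named from that comparison are the protein-coding ones of at least 5 FPKM in the higher group whose knockout libraries, replicate 3 included, all lay on 1 side of wild type. Among these the largest falls, after Nlrp14, were in Eif3j2 and Zglp1. Eif3j2, a translation initiation factor gene, was at 25.5, 27.6 and 28.5 FPKM in wild type, listed at 0 in knockout replicates 1 and 2 and at 19.8 FPKM in replicate 3, while its near-identical copy Eif3j1 was at 12.4, 14.6 and 13.3 FPKM and 13, 12.3 and 10.6 FPKM. The 2 copies can exchange fragments. Among the genes that rose, Pja1, a ubiquitin ligase, was at 1.01, 1.07 and 1.07 FPKM, then 5.39, 5.83 and 1.86 FPKM (1.69, adjusted p = 0.0043). Haus1, a subunit of the augmin complex of spindle microtubules, was at 6.83, 9.83 and 12.4 FPKM against 22.9, 20.7 and 36.8 FPKM (1.13, adjusted p = 0.035).

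The MII libraries share no sample with these and were compared as a separate set. Of the 1026 genes 714 were tested at MII, and 67 of them were called there (9.38%, or 38.7% of the 173 MII calls among genes tested in both), beside 2.16% of the 8012 genes tested in both. Of the 67, 62 moved the same way at both stages, 53 lower and 9 higher. The 53 include Nlrp14, without which 61 moved the same way. Others of the 53, among them Gca, Plxdc2, Ece1, Pcdhb17, Zfp992 and Zfp994, were under 1 FPKM in every knockout library at both stages. They passed both filters on low values only through wild type, which fixed their direction. The 5 that moved in opposite directions were Zp3, Tmem243, Gm13339, mt-Nd1 and mt-Nd4. Knockout replicates 1 and 2 fixed the direction at GV and only replicate 3 was free. It lay below wild type in 52 of the 53, beside 70.5% of the 621 genes called lower without it and 54.1% of all genes. It lay above in 8 of the 9, beside 46.7% of the 405 genes called higher and 30.8% of all genes.

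These counts rested on the MII libraries. They were 2, 5 and 4 when wild-type MII replicate 1, 2 or 3 was left out, 296 (215 the same way), 35 (34) and 8 (8) when knockout MII replicate 1, 2 or 3 was left out, and 60 (59) with the GC trend, 83 (76) with the length trend removed and 35 (31) after median-of-ratios rescaling. In the first 3 cases all moved the same way, and each of these counts includes Nlrp14. The length slopes of the knockout MII libraries were 0.0345, -0.0954 and -0.0411, so that 2 of them tilt in the direction of GV replicate 3. Their part in the overlap was not tested beyond these counts.

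The genes that follow were chosen from the shared ones after their values were seen. Tmem171, a membrane protein gene, was at 22.1, 20.5 and 21.3 FPKM in wild-type GV oocytes and 6.38, 8.60 and 5.89 FPKM in knockout, and at 53, 46.2 and 47.7 FPKM against 26.2, 21.5 and 21.1 FPKM in MII eggs. Rab32, a small GTPase of organelle traffic, was at 26.1, 24.6 and 25.9 FPKM against 13.1, 12.4 and 8.91 FPKM, and at 16.2, 15.8 and 19.4 FPKM against 4.06, 6.33 and 4.71 FPKM in MII eggs. Tnfsf11, the ligand RANKL, was at 6.42, 6.98 and 7.16 FPKM against 2.27, 2.81 and 1.26 FPKM, and at 5.49, 6.21 and 7.39 FPKM against 2.11, 1.72 and 1.90 FPKM. In all 3 the knockout libraries were below wild type at both stages, replicate 3 included.

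Their differences without replicate 3 were -1.41, -0.95 and -1.15 at GV and -1.06, -1.60 and -1.33 at MII. Hilpda, which protects lipid droplets from breakdown, fell by 1.62 and 1.28. Cyp4v3, a fatty acid hydroxylase, fell by 1.39 and 1.91. Gca, a calcium-binding protein, fell by 1.34 and 2.14, but the filter on low values fixed its direction at both stages.

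Fewer of the shared genes were higher at both stages, where the GV filter had left out genes that reached 1 FPKM in knockout alone. Ifitm3, an interferon-induced membrane protein, was at 110.3, 111 and 104 FPKM in wild-type GV oocytes and 209.9, 190.2 and 261 FPKM in knockout, and at 126, 110.4 and 124 FPKM against 231, 323 and 265 FPKM in MII eggs. Ndc80, the kinetochore protein that holds microtubules, was at 24.6, 25.2 and 24.8 FPKM against 34.7, 37.8 and 41.1 FPKM, and at 56.0, 55.7 and 47.5 FPKM against 96.4, 105 and 111 FPKM. Slbp, which binds the stem-loop of histone messages, was at 194, 187 and 195 FPKM against 251, 237 and 285 FPKM, and at 582, 555 and 528 FPKM against 804, 934 and 957 FPKM. Here every knockout library was above wild type at both stages, by 0.88, 0.53 and 0.34 at GV without replicate 3 and by 1.17, 0.96 and 0.69 at MII. Id3, an inhibitor of helix-loop-helix factors, rose by 1.44 and 1.26, with an adjusted p of 0.063 at GV once the GC trend was removed.

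**Figure D5:**
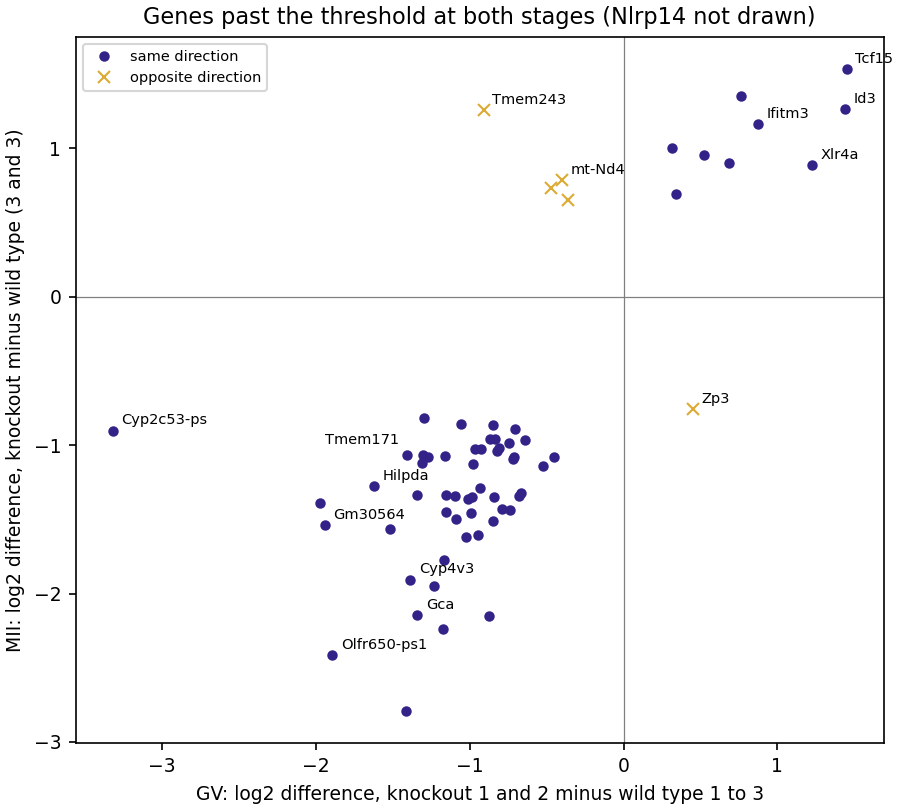
Knockout minus wild type on the log2(FPKM + 1) scale at GV without knockout replicate 3 (horizontal) and at MII (vertical) for the genes called in both fits, without Nlrp14, which lies outside the axes. Circles are the genes with the same direction at both stages, most of them in the lower left, and crosses are the 5 with opposite directions.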

How the data were processed

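Total RNA of 5 oocytes per library was sequenced in 3 wild-type and 3 knockout GV libraries. The authors deposited FPKM values for 55487 Ensembl genes per library, and, per the submitters' processing notes, StringTie and GRCm38 were used; versions, aligner, annotation and strand setting are not given in the sources used here. GENCODE M21 (GRCm38) gave symbols and exons for 55227 identifiers, and 260 had none. Low values of single-transcript genes fell on whole multiples of 1 fragment for 98.7 to 99.0% (multiples up to 30, tolerance 0.02), which gave the depths, so that 1 fragment in 1 kb is worth 0.0821 to 0.108 FPKM; genes with several transcripts give no whole fragments, and no count model was used.

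Genes that reached 1 FPKM in 3 or more libraries of a fit were tested with limma 3.58.1 (R 4.3.3; files read with data.table, version 1.17.8) on log2(FPKM + 1), two-sided, with variance trend and robust settings and Benjamini-Hochberg adjustment over all genes tested. Tables and figures were made with pandas 2.3.3, scipy 1.17.1, matplotlib 3.10.9 and numpy 2.4.6 under Python 3.11.15. On simulated data for the same 11635 genes, 43.3, 76.1 and 97.0% of 67, 67 and 66 genes changed 2-, 4- and 8-fold were recovered, with 12 false calls, and 0 calls with none changed. These rates describe the simulated data only. They are not taken as recovery rates for genes at low levels or for libraries tilted with length, as knockout replicate 3 was.

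The genes and lists were chosen with earlier results of these data known. Named were Nlrp14; the called genes; the 12 protein-coding genes highest in wild type; in each list the 4 highest members, the called members and the 2 with the smallest p; Slc8b1 and Uhrf1; the 3 nearest tested protein-coding neighbours on each side; and the 6 highest and 6 lowest genes of knockout replicate 3. Zglp1, Gm49373 and Fdx1l, other overlapping genes, and near-identical copies can exchange fragments, and their values are uncertain. List members outside this rule, among them Bmp15, Izumo1r, Astl, Nlrp5, Figla, Itpr1, Canx, Sod1 and those named for passing without knockout replicate 3, were chosen after their values were seen. Not all members within the rule are printed, and some are not reported here.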

Additional observations from a re-analysis of the deposited data

Results flagged for a closer look

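The difference between genotypes was compared across stages in one limma fit of all 24 libraries, as the effect at GV minus the effect at the later stage, a comparison chosen after the data were seen. Of the 11635 genes, 12 (0.103%) passed for MII, 471 (4.05%) for PN5 and 4543 (39%) for 2-cell embryos, which is the background for the genes below. Those genes were chosen because they were called at GV, and the same GV libraries enter this comparison. A larger effect at GV was thus favoured in advance. Nlrp14 differed by -1.82 log2 units for MII (SE 0.354, adjusted p = 0.044), by -1.33 for PN5 (adjusted p = 0.0403) and by -4.08 for 2-cell embryos (adjusted p = 9.67e-08). Its wild-type mean was 1937 FPKM at GV, 391 at MII, 209.8 at PN5 and 106 in 2-cell embryos. Gm49373, higher in the knockout at GV, differed by 2.34 for MII (adjusted p = 0.000226), 2.29 for PN5 (adjusted p = 0.000326) and 2.43 for 2-cell embryos (adjusted p = 1.15e-06). For 2-cell embryos Zglp1 differed by -2.21 (adjusted p = 0.00525), Olfr650-ps1 by -1.74 (adjusted p = 0.00692) and Gm30564 by -0.84 (adjusted p = 0.0148). The differences of Zglp1 for MII and PN5 were -2.19 (adjusted p = 0.36) and -2.06 (adjusted p = 0.052). Zglp1 and Gm49373 were near the lower limit of the data after GV and share most of the exon bases of Zglp1.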

How the results depend on the processing

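The count of genes called at GV, 5 as reported, was 10 on the TPM scale, 54 with the length trend removed from each library, 13 with the GC trend removed, 2 with no filter on low values, 1 with a mean of at least 5 FPKM and 192 with all 24 libraries in one fit. It was 4 after median-of-ratios rescaling or with a pseudocount of 0.1, and 5 without variance trend and robust settings. Leaving out 1 library gave 1 to 1026 genes. Added after the data were seen, the fits without knockout replicate 3 gave 1049 with the length trend removed, 1034 with median-of-ratios rescaling and 790 with the GC trend removed. Fitted with the replicate number as a block, the count was 2, with or without the length trend. The numbers share no stated litter or day, and same-numbered deviations correlated at -0.195, 0.214 and 0.114, so they were not taken as pairs.

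The Nlrp14 difference kept its direction and its call in every alternative run (leave-one-out -6.34 to -5.94). The share of bounded genes was 52.9% with a pseudocount of 0.1, 54.0% on the TPM scale, 87.1% with no filter and 60.5 to 88.6% over the leave-one-out fits. The length slope of wild-type replicate 2 went from 0.0312 to 0.0474 over genes of at least 5 FPKM. Beside Nlrp14, the genes called at both GV and PN5 numbered 2, and 1 after median-of-ratios rescaling. Psma6 (0.01) ranged from -0.27, without knockout replicate 3, to 0.17 when 1 library was left out, and was -0.28 without that replicate after rescaling. Of 183 genes, the named ones and those shared with MII, 69 not called with all 6 libraries passed without that library. Depth limits genes under about 1 FPKM.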

Other observations

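Akr1b8, an aldo-keto reductase, had the smallest p of the genes not called at GV, at 57.1, 37.3 and 47.6 FPKM in wild type against 12.7, 12.1 and 9.12 FPKM in knockout (-1.97, limma adjusted p = 0.059). It was called at PN5 (-1.62, adjusted p = 0.029) and in 2-cell embryos (-2.54, adjusted p = 0.0018), and was too low to test at MII. Map2k6, a kinase upstream of p38, was at 2.87, 1.95 and 3.69 FPKM against 0.314, 0.307 and 0.264 FPKM (adjusted p = 0.073). Gm13962 was at 0, 0 and 0.538 FPKM in wild-type GV oocytes and 2.59, 2.86 and 3.90 FPKM in knockout (adjusted p = 0.073), and in 2-cell embryos at 12.6, 5.90 and 13.5 FPKM against 23.4, 34.0 and 37.1 FPKM (1.53, adjusted p = 0.0046). In all 3 genes the GV groups were apart. For Map2k6 and Gm13962 the filter on low values fixed this, since each passed it only through its higher group. These genes were chosen by their p at GV after the values were seen.

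Among 6 tested markers of the 2-cell embryo 0 were called. The 4 Zscan4 genes, which are near-identical copies, had negative differences, from -0.88 in Zscan4d (10.4, 9.12 and 5.39 FPKM against 2.97, 3.42 and 5.72 FPKM, adjusted p = 0.31) to -0.42 in Zscan4a. The other 2, Tcstv1 and Tcstv3, had positive ones, 0.13 and 0.28, and were the most abundant. Tcstv1 was at 98.5, 87.5 and 99.5 FPKM against 96.4, 93.4 and 126 FPKM, and Tcstv3 at 55.1, 44.0 and 51.7 FPKM against 68.3, 61.6 and 53.8 FPKM. The summed level of the whole marker list, untested members included, was 149 to 174 FPKM in wild type against 164 to 192 FPKM in knockout. Lyz2, a gene of macrophages, was at 32.6 FPKM in wild-type replicate 3 and at most 0.732 FPKM in the other 5 libraries. The spermatid genes Prm2 (9.22, 9.37 and 9.96 FPKM against 4.81, 5.86 and 5.69 FPKM) and Ldhc (2.48, 4.80 and 6.07 FPKM against 15.6, 8.90 and 6.36 FPKM) parted the genotypes in opposite directions without a call (adjusted p = 0.14 and 0.35).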
